A study of Mus musculus with 8 samples.

Results

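The immunoglobulin gene segments described here were the genes whose type in the deposited table begins with IG_ and whose counts, summed over the 8 libraries, reached at least 20. This gave 102 members of 37417 genes in the table. Of 236 genes with such a type, 182 had any count. The members comprised 80 genes of the immunoglobulin loci and 22 genes of the T cell receptor loci, which the table also types as IG_. The immunoglobulin members were 4 heavy constant genes, 17 heavy variable and 4 heavy joining segments, the kappa constant gene Igkc, 46 kappa variable and 5 kappa joining segments, and 3 lambda variable segments. Since the members were chosen by their counts, their presence in the tissue is not a result. Igkv5-37 with 21 counts and Ighv5-2 with 20 lay just inside the minimum, and Ighv15-2 with 18 and Igkv12-38 with 15 lay just outside it.

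RNA was measured in epididymal adipose tissue, the visceral fat pad beside the male reproductive tract, from 4 KO and 4 WT male C57Bl/6 mice on a chow diet. KO mice had the genotype Adiponectin-Cre ERT2-Atg3 flox/flox, in which tamoxifen activates a Cre recombinase driven by the adipocyte promoter of adiponectin and removes Atg3, a conjugation enzyme of autophagy, from adipocytes. B cells and plasma cells are not targets of that promoter. All 8 mice received tamoxifen, and the labels give neither their age nor whether WT mice carried floxed alleles or Cre. The design text counts 4 mice in each group, so each library was taken as a separate mouse. Polyadenylated RNA was read in 50 cycles from 1 end, and the total count per library was between 10986375 and 21688464.

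An antibody is assembled from heavy and light chains, and each B cell joins its own choice of variable and joining segments to a constant gene. The heavy constant gene sets the isotype: B cells begin with Ighm (IgM) and can switch to other genes, such as Ighg or Ighe (IgG and IgE). Light chains are kappa or lambda. B cells carry the product on their surface and plasma cells secrete it in large amounts, so immunoglobulin RNA in a tissue reflects both cell types, and a segment that is abundant in 1 tissue sample can come from few expanded or highly secreting cells. Fat pads hold B-1 cells, a self-renewing lineage of the body cavities that makes natural IgM, beside conventional B-2 cells. Mouse B-1a cells that bind phosphatidylcholine often use Ighv11-2 with Igkv14-126, or Ighv12-3 with Igkv4-91.

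The segments on which the comparisons of variable use turn are shown by their last 60 coding bases, 5′ to 3′ on the coding strand, from GENCODE M21 on GRCm38. This is the stretch that runs into the join with the next segment and differs from segment to segment. Capitals mark the motif TANTNNTGN, which holds the tyrosine and cysteine codons that end the framework before the antigen-contacting loop of the join. Ighv12-3 at chr12:114366526-114366954 and Ighv11-2 at chr12:114048241-114048704 are heavy segments on the minus strand. Ighv6-3, Ighv6-6, Ighv7-4 and Ighv3-6 each had the largest share among the heavy variable members in at least 1 library. Igkv4-91 at chr6:68768568-68769103 (minus strand) and Igkv14-126 at chr6:67896177-67896642 (plus strand) are the kappa partners named above, and Igkv8-21, Igkv5-39, Igkv4-90 and Igkv8-24 each had the largest share among the kappa variable members in at least 1 library.
Ighv12-3: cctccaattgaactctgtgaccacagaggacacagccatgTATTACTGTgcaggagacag
Ighv11-2: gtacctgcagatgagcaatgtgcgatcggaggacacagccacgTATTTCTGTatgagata
Ighv6-3: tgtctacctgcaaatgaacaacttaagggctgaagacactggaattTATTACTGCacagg
Ighv6-6: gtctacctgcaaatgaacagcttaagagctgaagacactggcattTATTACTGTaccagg
Ighv7-4: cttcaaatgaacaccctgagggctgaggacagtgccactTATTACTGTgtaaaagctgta
Ighv3-6: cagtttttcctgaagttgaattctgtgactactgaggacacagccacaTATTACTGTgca
Igkv4-91: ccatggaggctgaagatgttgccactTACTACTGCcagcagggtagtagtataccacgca
Igkv14-126: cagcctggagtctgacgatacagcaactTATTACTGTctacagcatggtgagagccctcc
Igkv8-21: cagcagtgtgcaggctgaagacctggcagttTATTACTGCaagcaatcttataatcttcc
Igkv5-39: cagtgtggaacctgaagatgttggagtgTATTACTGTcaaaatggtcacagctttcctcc
Igkv4-90: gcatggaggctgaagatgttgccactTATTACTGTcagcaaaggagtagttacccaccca
Igkv8-24: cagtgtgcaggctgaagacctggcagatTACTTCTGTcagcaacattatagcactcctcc

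On the coding strand, the motif stood in the last 60 coding bases of 61 of the 66 variable members: 14 of 17 heavy, 45 of 46 kappa and 2 of 3 lambda segments. The 5 without it were Igkv6-20, Ighv3-8, Ighv1-18, Ighv8-12 and Iglv3. In the same stretch of the longest coding sequence of 21936 protein-coding genes, 2.95% held it on the coding strand and 3.88% on the opposite strand. On the opposite strand 10 of the 66 variable members held it.

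Atg3, the targeted gene, had 30.5, 32.2, 30.8 and 27.8 CPM in KO libraries, against 49.1, 44.5, 53.6 and 53.5 CPM in WT libraries (log2 fold change -0.73 ± 0.09 SE, adjusted p = 0.0168). CPM are TMM-scaled counts in proportion to library size, and fold changes and adjusted p-values are from edgeR's quasi-likelihood test over 14800 genes. The groups did not overlap for Atg3, and whole tissue also holds cells in which the Cre is not active. Adipoq, the adipocyte marker whose promoter drives the Cre, had between 2155 and 2372 CPM in KO libraries and between 2453 and 3995 CPM in WT libraries. The 14 duct epithelium markers, genes of the neighbouring reproductive duct, summed to 81.0, 627, 644 and 85.7 CPM in KO libraries and to 38.4 to 53.5 CPM in WT libraries, so KO libraries 2 and 3 stood apart. The 20 B cell surface markers found, such as Ms4a1, Cd79a and Cd22, summed to 376, 223, 280 and 240 CPM in KO libraries and to 677, 193, 222 and 301 CPM in WT libraries, with WT library 1 above the other 7. The part of either in the values of the members was not tested. In whole tissue, fewer cells of a type and less RNA per cell cannot be told apart.

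Immunoglobulin RNA was abundant in all 8 fat pads, and no member was called between genotypes at an adjusted p of 0.05. The members took between 0.299% and 0.744% of all counts in a library. Their summed level was 6697, 4992, 7097 and 3585 CPM in KO libraries, against 4983, 5987, 5958 and 3034 CPM in WT libraries, a mean of 5593 ± 1620 in KO and 4991 ± 1385 in WT (SD, n = 4 each). The groups overlapped, and library 4 was the lowest of either group. The heavy constant genes held 64.9% of all member counts and Igkc 26.7%, kappa variable segments 4.53%, heavy variable segments 1.89% and lambda variable segments 1.26%. Joining segments and T cell receptor genes held under 1% together.

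Of the 102 members, 63 passed the filter on low counts and were tested, 58 of them at immunoglobulin loci. None was called at an adjusted p of 0.05, where the background was 60 of 14800 genes or 0.405% (0.277% higher and 0.128% lower in KO). At an unadjusted p of 0.05, 3 members were higher and 2 lower in KO, against 8.52% of all tested genes higher and 7.66% lower (16.2% in either direction). At an adjusted p of 0.05, DESeq2 called 2 members, both lower in KO, where it called 813 of 14498 genes or 5.61% (2.01% lower in KO). The median log2 fold change of the tested members was 0.09, that of all tested genes was -0.01, and 33 members were positive and 30 negative. The range was wider than for constant genes alone, from -3.64 for Igkv8-21 to 2.48 for Igkv4-74. The CPM of KO and WT libraries did not overlap for 1 member that was higher in KO, Ighj1, and for 1 that was lower in KO, Ighv12-3; in all tested genes, 4.32% did not overlap with KO higher and 4.54% with KO lower, 8.86% in all.

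Among the heavy constant genes, Ighm was the most abundant in every library. Ighm (chr12:113420867-113422730), which encodes the IgM heavy chain, had 4313, 3182, 3890 and 2258 CPM in KO libraries, against 2059, 3468, 3600 and 1908 CPM in WT libraries. The groups overlapped, with KO library 1 highest and WT library 4 lowest (log2 fold change 0.31 ± 0.27 SE, adjusted p = 0.628). Igkc (chr6:70726435-70726757), the constant part of the kappa light chain, had 1541, 1241, 1884 and 914 CPM in KO libraries, against 1898, 1580, 1528 and 807 CPM in WT libraries. The 4 and 4 libraries covered nearly the same range (log2 fold change -0.06 ± 0.29 SE, adjusted p = 0.941). On the deposited FPKM, which divide by exonic length, Igkc averaged 4367 ± 1440.1 in KO and 4493 ± 1553 in WT, above Ighm at 2516 ± 716 in KO and 1989 ± 589 in WT (SD, n = 4 each). Per length, Ighm was 0.661, 0.606, 0.488 and 0.584 of Igkc in KO libraries, against 0.256, 0.519, 0.557 and 0.559 in WT libraries. WT library 1, the library with the most B cell marker RNA, had the lowest ratio.

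**Figure D1:**
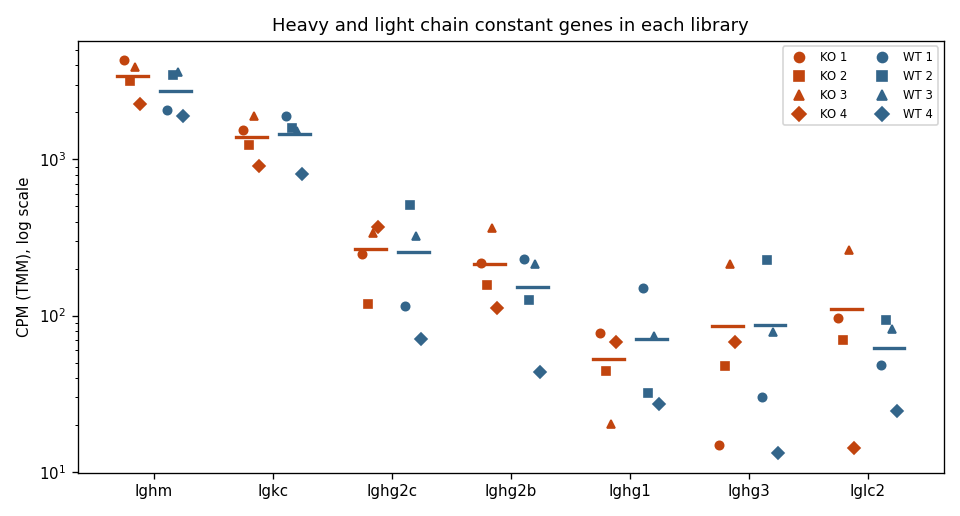
CPM (log scale) of 5 heavy constant genes, Igkc and Iglc2 in each of 4 KO and 4 WT libraries, with a line at each group's mean. KO and WT points overlap for every gene, with Ighm between 1908 and 4313 CPM and Ighg3 between 13.2 and 228 CPM.

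The IgG constant genes varied more between mice of a genotype than Ighm did. Ighg2b (chr12:113306389-113307933) had 217, 157, 365 and 112 CPM in KO libraries, against 230, 126, 213 and 43.6 CPM in WT libraries (log2 fold change 0.48 ± 0.51 SE, adjusted p = 0.692). Ighg1 (chr12:113328976-113330523) had 77.9, 44.0, 20.4 and 68.1 CPM in KO libraries, against 151, 31.9, 73.8 and 27.3 CPM in WT libraries (-0.43 ± 0.58 SE, adjusted p = 0.760). Neither gene separated the genotypes. Ighg3 (chr12:113359665-113361232) had 14.8, 47.6, 215 and 67.7 CPM in KO libraries, against 30.0, 228, 78.7 and 13.2 CPM in WT libraries (-0.03 ± 0.92 SE, adjusted p = 0.992). KO library 3 and WT library 2 were high for Ighg3, and the lowest library of each genotype had under 15 CPM.

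Isotype use was read as the share of each gene in the counts of 6 heavy constant genes. These were the 4 members and Ighg2c and Ighe, which the table types as protein coding and the rule therefore leaves out. No row was matched to Igha or Ighd, the genes of IgA and IgD. The shares therefore do not cover those isotypes. Ighm took 88.4%, 89.6%, 80.6% and 78.5% of these counts in KO libraries, against 79.6%, 79.5%, 83.6% and 92.5% in WT libraries. The mean was 84.3% ± 5.55 in KO and 83.8% ± 6.07 in WT (SD, n = 4 each), so the groups differed by less than their spread. With 30053 to 74227 heavy constant counts a library, the 95% exact binomial interval of a share was narrow: 88.2% to 88.7% for Ighm in KO library 1. Such intervals cover counting error only, since reads without molecular identifiers are not independent molecules.

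Below Ighm, the leading IgG gene was not the same in every mouse. Ighg2c, the IgG2 subclass gene that C57BL/6 mice carry, had 5.09%, 3.34%, 6.97% and 12.8% in KO libraries, against 4.45%, 11.7%, 7.47% and 3.46% in WT libraries. Ighg2b had 4.45%, 4.43%, 7.56% and 3.89% in KO libraries, against 8.89%, 2.89%, 4.94% and 2.11% in WT libraries. Ighg2b exceeded Ighg2c in KO libraries 2 and 3 and in WT library 1, and Ighg2c exceeded it in the other 5. Ighg1 had 1.60%, 1.24%, 0.422% and 2.37% in KO libraries, against 5.85%, 0.732%, 1.71% and 1.32% in WT libraries, with WT library 1 highest. Ighg3 had 0.303%, 1.34%, 4.45% and 2.35% in KO libraries, against 1.16%, 5.22%, 1.83% and 0.641% in WT libraries. The order of the IgG genes differed between libraries of both genotypes, and no gene's share separated KO from WT.

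Ighe, the IgE heavy chain gene, was low in most libraries. It had 98, 6, 14 and 12 counts in KO libraries, against 0, 0, 254 and 4 counts in WT libraries. KO library 1 and WT library 3 held 0.155% and 0.484% of their heavy constant counts in Ighe. Where no count was seen, 3 counts would be 0.00998% in WT library 1 and 0.00404% in WT library 2, so a lower share was not detectable at this depth.

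**Figure D2:**
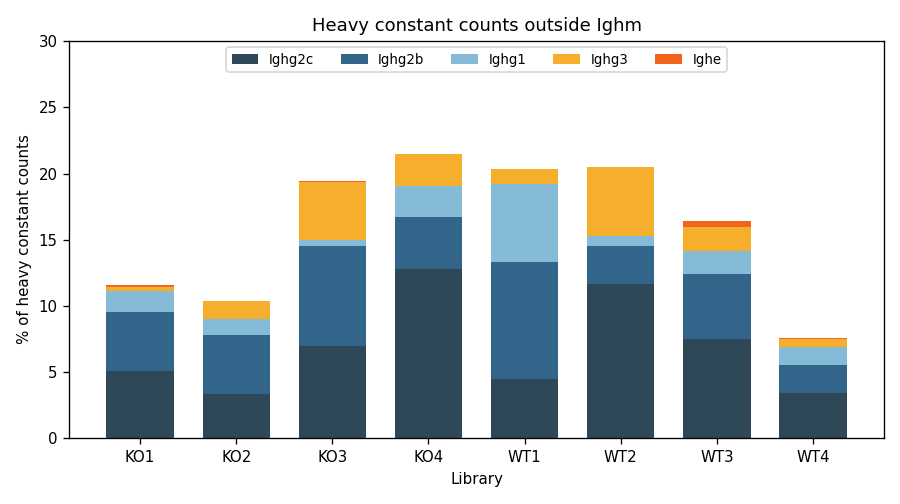
Share of heavy constant counts in the genes other than Ighm, stacked for each of 4 KO and 4 WT libraries. The stacks are made up differently from library to library, with Ighg2c at 12.8% in KO library 4 and Ighg1 at 5.85% in WT library 1.

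Light chains were mostly kappa in both genotypes. Igkc was 94.1%, 94.7%, 87.8% and 98.5% of the counts of Igkc and the lambda constant gene Iglc2 in KO libraries, against 97.5%, 94.4%, 94.9% and 97.1% in WT libraries. The mean was 93.8% ± 4.41 in KO and 96.0% ± 1.56 in WT (SD, n = 4 each), and both the lowest and the highest library were KO. A row without a name or type that lies on the lambda constant gene Iglc3 was left out of this share and had 247, 439, 655 and 227 counts in KO libraries, against 237, 1442, 578 and 262 in WT libraries. With it the kappa share averaged 92.2% ± 4.65 in KO and 93.4% ± 2.99 in WT, a difference of -1.23 percentage points against -2.22 without it. No Iglc1 row is used here, and 14.4% of the 50-base windows of Iglc2 are shared with other transcripts. Iglc2, typed as protein coding in the table, had 97.3, 69.7, 261 and 14.2 CPM in KO libraries, against 48.1, 94.3, 81.5 and 24.4 CPM in WT libraries (log2 fold change 0.83 ± 0.73 SE, adjusted p = 0.619).

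Only 3 lambda variable segments were members, as the mouse lambda locus is small. Iglv1 had 29.2, 29.0, 83.4 and 7.74 CPM in KO libraries, against 16.7, 84.2, 49.9 and 23.8 CPM in WT libraries. Iglv2 had 27.5, 16.3, 79.1 and 2.26 CPM in KO libraries, against 5.93, 26.0, 19.7 and 6.22 CPM in WT libraries. Iglv1 was above Iglv2 in all 8 libraries. Its share of lambda variable counts was 47.7%, 59.8%, 49.3% and 74.5% in KO libraries, against 63.0%, 75.4%, 67.0% and 77.7% in WT libraries. Iglv3 took between 1.26% and 14.6%. The division between Iglv1 and Iglv2 is uncertain, because 25.2% of the 50-base windows of Iglv1 also occur in another annotated transcript, most of them in Iglv2. Their last 300 coding bases were 97.3% identical, with 8 differing positions, and the last 120 bases are shown with the 4 differing positions in capitals.
Iglv1: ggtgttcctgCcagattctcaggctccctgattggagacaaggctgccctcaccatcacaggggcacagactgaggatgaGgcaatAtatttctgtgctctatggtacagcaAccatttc
Iglv2: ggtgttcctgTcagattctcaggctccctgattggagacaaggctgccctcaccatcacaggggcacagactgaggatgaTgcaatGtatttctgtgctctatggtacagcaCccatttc

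The leading variable segments differed from mouse to mouse within each genotype. Among the heavy variable members, Ighv6-3 had the largest share in KO libraries 2 and 3 and in WT libraries 1 and 2, and Ighv6-6 in WT libraries 3 and 4. Ighv6-3 had 6.59%, 22.6%, 26.4% and 12.2% of heavy variable member counts in KO libraries, against 17.9%, 33.4%, 13.4% and 15.7% in WT libraries. Ighv6-6 had 7.87%, 5.19%, 17.9% and 8.20% in KO libraries, against 11.2%, 9.23%, 45.0% and 48.6% in WT libraries. Both are segments of the VH6 family, and 14.0% of the 50-base windows of Ighv6-3 and 19.2% of those of Ighv6-6 are shared.

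KO libraries 1 and 4 were led by other segments. Ighv7-4 had 19.9%, 2.39%, 0.370% and 0% in KO libraries, against 0.111%, 0%, 0.591% and 0% in WT libraries, and KO library 1 held 89.6% of its summed CPM. Ighv3-6 had 10.98%, 12.1%, 15.9% and 54.7% in KO libraries, against 5.23%, 6.08%, 10.4% and 2.36% in WT libraries. The 95% exact binomial interval of Ighv3-6 in KO library 4 was 50.9% to 58.4% of 695 counts. In CPM, Ighv3-6 had 13.9, 6.74, 32.2 and 18.3 in KO libraries, against 4.04, 8.52, 13.0 and 1.11 in WT libraries, and all heavy variable members together summed to 33.4 CPM in KO library 4, the lowest of the 8 libraries (log2 fold change 1.42 ± 0.67 SE, adjusted p = 0.338).

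Of the other leading heavy segments, Ighv7-3 was spread over all libraries, with 9.33%, 16.6%, 16.2% and 6.76% in KO libraries, against 5.01%, 29.4%, 19.0% and 12.5% in WT libraries. Ighv1-18 was high in KO library 2 (19.4%) and WT library 1 (17.0%) and took no more than 6.19% in the others. Ighv14-4 was high in KO library 1 (10.3%) and WT library 1 (15.5%), against at most 1.68% elsewhere. Ighv7-1 took between 1.01% and 13.4%, and Ighv4-1 between 0.576% and 9.02%. High shares of these segments other than Ighv4-1 thus fell in libraries of both genotypes.

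Among the kappa variable members, 7 different segments led in the 8 libraries. Igkv8-24 led in KO library 3 and WT library 2, at 11.8% and 11.7%. The other leaders were Igkv16-104 (16.2%), Igkv3-10 (13.9%) and Igkv19-93 (20.3%) in KO libraries 1, 2 and 4, and Igkv5-39 (29.6%), Igkv4-90 (13.6%) and Igkv8-21 (40.5%) in WT libraries 1, 3 and 4. Igkv4-90 took no more than 0.583% in any of the other 7 libraries. Igkv5-39 had 18.2, 20.2, 19.6 and 8.94 CPM in KO libraries, against 131, 5.70, 4.43 and 3.34 CPM in WT libraries. The WT library with 131 CPM is the one with the most B cell marker RNA. Igkv17-121 took 8.07%, 6.08%, 2.24% and 7.39% in KO libraries, against 0.466%, 10.7%, 0.485% and 0.638% in WT libraries. Igkv15-103 was more even, between 1.91% and 9.36%, and Igkv8-30 took between 0.875% and 8.76%.

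**Figure D3:**
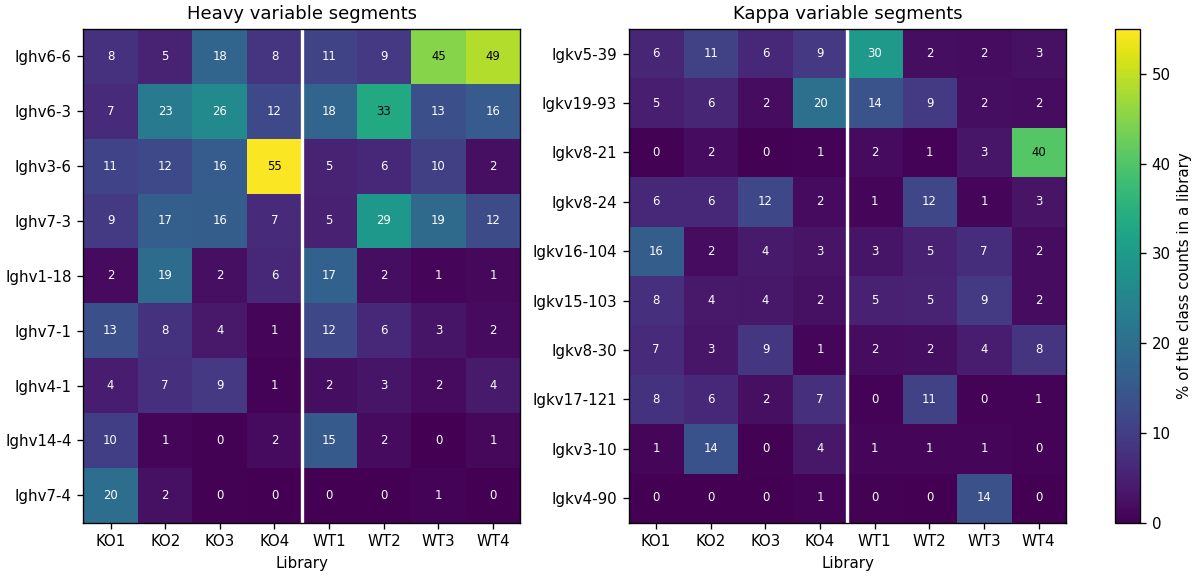
Share of heavy variable (left) and kappa variable (right) member counts taken by the leading segments in each of 4 KO and 4 WT libraries, as rounded percentages in each cell. Single libraries stand out within these member counts: Ighv3-6 at 54.7% in KO library 4, Igkv8-21 at 40.5% in WT library 4 and Igkv5-39 at 29.6% in WT library 1.

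Across all 66 variable members, 16 had over 50% of their summed CPM in 1 library. Members were chosen by their summed counts, so a low segment can be a member because of 1 high library. A difference between genotypes in this count was not tested. The highest library held a median of 35.4% of a variable member's summed CPM, where an even share is 12.5%. Of the 48 variable members that passed the filter on low counts, 6 had over 50% in 1 library, as 38 of all 14800 tested genes had. The median was 33.1% for these 48, against 15.5% for all tested genes. Agreement of segment shares between pairs of libraries, as the summed smaller share, had a median of 49.3% for heavy segments in the 6 KO pairs, 54.0% in the 6 WT pairs and 49.4% in the 16 pairs across genotypes. For kappa segments the medians were 56.2% in KO pairs, 44.0% in WT pairs and 49.8% across genotypes. Pairs share libraries, so these are descriptions and no test was run.

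The evenness of segment use did not separate the genotypes. The effective number of heavy segments, the inverse Simpson index, was 9.07, 6.86, 6.08 and 3.01 in KO libraries, against 8.02, 4.60, 3.72 and 3.52 in WT libraries. That of kappa segments was 15.2, 17.4, 18.7 and 12.8 in KO libraries, against 7.73, 16.7, 14.6 and 5.29 in WT libraries. The lowest kappa values were in WT libraries 4 and 1, led among the members by Igkv8-21 and Igkv5-39. Thinned to 695 heavy counts, 13.0 to 15.9 of 17 heavy segments were seen in KO libraries and 14.1 to 15.0 in WT libraries. Thinned to 2038 kappa counts, 41.0 to 44.0 of 46 kappa segments were seen in KO libraries and 38.0 to 41.6 in WT libraries.

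These 2 limits apply to these shares. The members held 28.0% of the counts of heavy variable genes and 40.7% of those of kappa variable genes in the table, because a further 64 heavy and 37 kappa rows that lie on variable genes of GENCODE M21 and reach 20 counts have no IG_ type. In KO library 4 the heavy members held 16.0%. With those rows included, Ighv3-6 had 8.77% in KO library 4 and Igkv8-21 had 16.0% in WT library 4, and neither led any library. Igkv5-39 had 16.5% in WT library 1 and still led there. Kappa variable segments also resemble each other: the median kappa member shared 13.3% of its 50-base windows with another transcript and 8 of 46 shared at least 50%, against a median of 1.71% for heavy members. That low median covers the 17 heavy members only. Heavy rows without a type shared from 0% (Ighv1-9) to 91.4% (Ighv1-72) of their windows. Neither the labels nor the table state how reads that fit several genes were counted.

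Ighv12-3 had the lowest p-value of all members and was lower in every KO library than in any WT library. It had 1.15, 0.445, 0.272 and 0 CPM in KO libraries, against 2.24, 3.94, 3.03 and 3.14 CPM in WT libraries. In counts these were 15, 6, 4 and 0 in KO libraries, against 26, 67, 37 and 48 in WT libraries. The log2 fold change was -2.80 ± 0.72 SE with an unadjusted p of 0.00373, and the adjusted p of 0.135 missed the threshold. DESeq2 gave an adjusted p of 0.0114, and edgeR without KO library 1 gave 0.0437. These were the only 2 of 14 alternative settings that called it. The fold change was negative in all 14, and the adjusted p reached 0.550. It was 0.252 with the replicate block and 0.351 without KO library 2. None of the 50-base windows of Ighv12-3 is shared with another annotated transcript. Its share of heavy variable member counts was 0.915%, 0.798%, 0.135% and 0% in KO libraries, against 2.90%, 2.81%, 2.43% and 6.67% in WT libraries.

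Its kappa partner in phosphatidylcholine-binding B-1a cells, Igkv4-91, did not separate the groups. It had 8.39, 1.33, 11.8 and 0.961 CPM in KO libraries, against 35.3, 12.4, 6.64 and 9.82 CPM in WT libraries (log2 fold change -1.52 ± 0.81 SE, adjusted p = 0.401). KO libraries 2 and 4 were the lowest for Igkv4-91, as they were among the lowest 3 for Ighv12-3. A kappa segment can be used with many heavy segments. Of the B-1 cell list, 7 of 8 genes were tested and none was called: Bhlhe41, a B-1a transcription factor with the highest mean level of the list, had a log2 fold change of 0.03 (adjusted p = 0.944).

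The other phosphatidylcholine-binding pair, Ighv11-2 and Igkv14-126, lies among the rows without a name or type, identified by their position on GENCODE M21, so neither is a member, and both were chosen after their values were seen. Ighv11-2 had 13.5, 28.1, 19.2 and 4.52 CPM in KO libraries, against 9.12, 7.93, 10.0 and 13.6 CPM in WT libraries (log2 fold change 0.68 ± 0.46 SE, adjusted p = 0.508). Igkv14-126 had 59.6, 115, 78.2 and 21.4 CPM in KO libraries, against 46.5, 37.4, 35.0 and 56.4 CPM in WT libraries (0.64 ± 0.42 SE, adjusted p = 0.491). Both segments were highest in KO library 2, next highest in KO library 3 and lowest in KO library 4, and for both the WT libraries lay within the KO range. KO libraries 2 and 3 are the ones with high duct epithelium markers. Without them the log2 fold change was -0.18 for Ighv11-2 (adjusted p = 0.934) and -0.11 for Igkv14-126 (adjusted p = 0.953). Leaving out the highest libraries lowers the KO mean by construction, and the part of duct tissue in these values was not tested. Over all settings, the lowest adjusted p was 0.120 for Ighv11-2 and 0.105 for Igkv14-126. With these rows included, Igkv14-126 had the largest mean share of kappa variable counts, 10.2%, and led in 4 libraries. Ighv11-2 shares 52.3% of its 50-base windows with other transcripts and Igkv14-126 none.

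**Figure D4:**
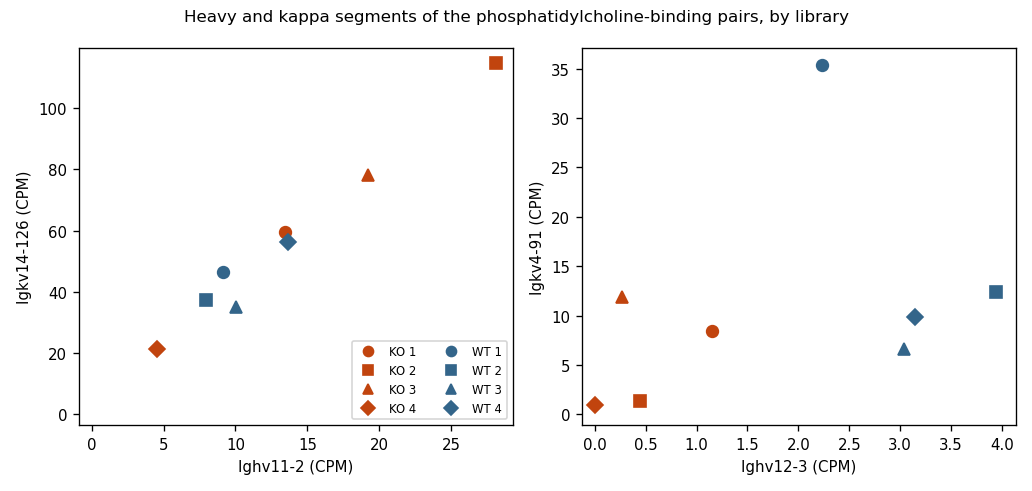
Left, Igkv14-126 against Ighv11-2, and right, Igkv4-91 against Ighv12-3, in CPM (TMM-scaled), 1 point for each of 4 KO and 4 WT libraries. On the left the libraries lie near a line, from KO library 4 (4.52 and 21.4 CPM) to KO library 2 (28.1 and 115 CPM), and on the right all 4 KO libraries lie at or under 1.15 CPM of Ighv12-3.

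**Figure D5:**
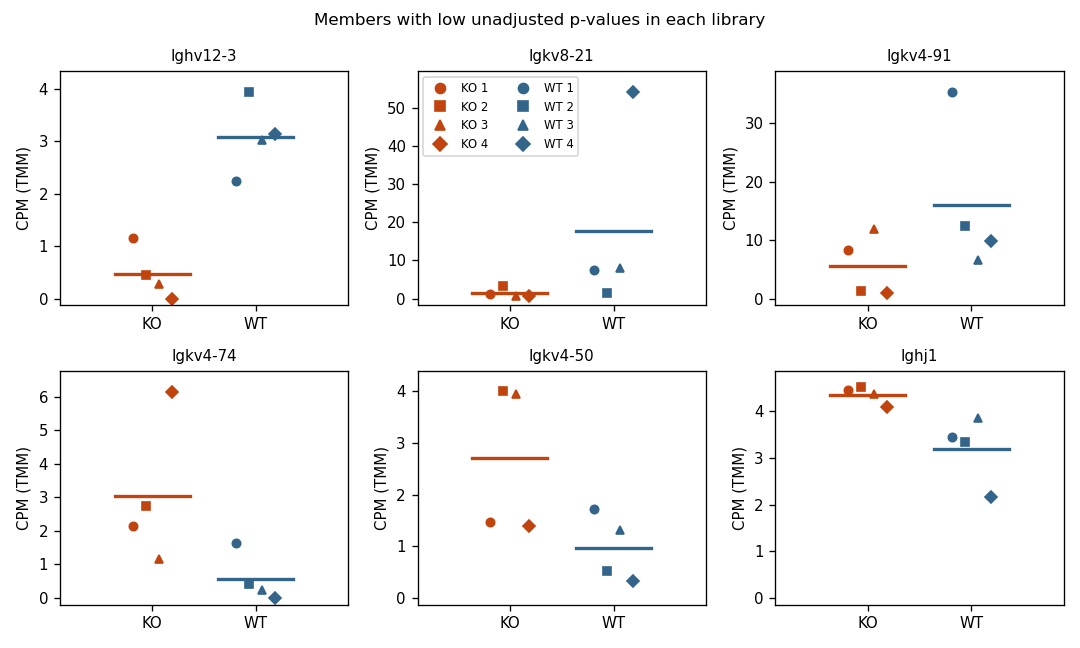
CPM (TMM-scaled) of 6 members with low unadjusted p-values in 4 KO (left) and 4 WT (right) libraries, each panel on its own axis from 0 with a line at the group mean. The groups are apart for Ighv12-3 (KO at most 1.15, WT at least 2.24) and Ighj1, and WT library 4 has 54.0 CPM of Igkv8-21, against 1.35 to 7.96 CPM in the other WT libraries.

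The other members with low p-values were kappa variable segments, the heavy variable segment Ighv3-6 and Ighj1. Igkv8-21 had 1.15, 3.33, 0.681 and 0.625 CPM in KO libraries, against 7.48, 1.35, 7.96 and 54.0 CPM in WT libraries (log2 fold change -3.64 ± 1.08 SE, adjusted p = 0.164; DESeq2 0.0237). Without WT library 4 the log2 fold change was -1.96 (adjusted p = 0.277). WT library 2 lay within the KO range. Igkv4-74 had 2.15, 2.74, 1.16 and 6.15 CPM in KO libraries, against 1.63, 0.411, 0.246 and 0 CPM in WT libraries (2.48 ± 0.87 SE, adjusted p = 0.212), and 52.8% of its windows are shared, most with Igkv4-61. Igkv4-50 had 1.46, 4.00, 3.95 and 1.39 CPM in KO libraries, against 1.72, 0.529, 1.31 and 0.327 CPM in WT libraries (1.50 ± 0.57 SE, adjusted p = 0.245). The others among the 5 lowest p-values in each direction were Igkv13-84 (1.09, adjusted p = 0.270), Igkv4-80 (-1.23, adjusted p = 0.335), Igkv8-27 (-1.78, adjusted p = 0.336) and, as given above, Ighv3-6 and Igkv4-91. KO and WT libraries overlapped for each of these.

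Joining segments are short and were counted at low depth, with 111 to 445 counts for a heavy joining segment over all libraries. Ighj1 had 4.46, 4.52, 4.36 and 4.08 CPM in KO libraries, against 3.44, 3.35, 3.86 and 2.16 CPM in WT libraries. The groups did not overlap, and the adjusted p of 0.338 missed the threshold (log2 fold change 0.45 ± 0.21 SE). Ighj4 had 2.92, 1.78, 4.83 and 1.87 CPM in KO libraries, against 3.53, 8.99, 2.71 and 1.11 CPM in WT libraries (-0.53 ± 0.59 SE, adjusted p = 0.707). Ighj2 and Ighj3 had 111 and 133 counts in all. The coding bases of the 4 segments are shown with TGGGGN in capitals, the tryptophan and glycine codons that follow the antigen-contacting loop. All 4 hold it on the coding strand and none on the opposite strand, against 6.17% and 8.45% of protein-coding genes in their last 54 coding bases.
Ighj1: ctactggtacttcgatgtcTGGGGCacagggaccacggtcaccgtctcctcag
Ighj2: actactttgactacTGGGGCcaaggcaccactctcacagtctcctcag
Ighj3: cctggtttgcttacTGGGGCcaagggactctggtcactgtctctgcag
Ighj4: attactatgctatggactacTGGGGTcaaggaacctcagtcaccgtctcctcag

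The 22 T cell receptor members were low. They summed to 28.9, 19.6, 21.9 and 14.2 CPM in KO libraries, against 54.4, 17.8, 15.0 and 19.6 CPM in WT libraries, between 0.252% and 1.09% of all member counts. Trac, the constant gene of the alpha chain, had 7.70, 4.15, 4.63 and 3.60 CPM in KO libraries, against 13.5, 3.82, 2.46 and 5.50 CPM in WT libraries (log2 fold change -0.33 ± 0.50 SE, adjusted p = 0.788). WT library 1 was highest, as it was for the 15 T cell markers, which summed to 294 CPM there and to between 78.9 and 182 CPM in the other 7. Trbc1 and Trbc2, constant genes of the beta chain, share 61.1% and 60.3% of their windows and cannot be told apart with confidence.

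No gene of the lists of antibody-making and antibody-handling genes was called. Of the plasma cell and secretion list, 15 genes were tested, 10 with positive and 5 with negative log2 fold changes, and none was called. Igj, the joining chain of secreted IgM and IgA, had 394, 324, 560 and 160 CPM in KO libraries, against 806, 609, 626 and 195 CPM in WT libraries (log2 fold change -0.64 ± 0.45 SE, adjusted p = 0.534). Xbp1, a transcription factor of secretory cells that adipocytes also express, had 250, 220, 292 and 225 CPM in KO libraries, against 308, 243, 235 and 221 CPM in WT libraries. Txndc5 had 207, 211, 232 and 198 CPM in KO libraries, against 202, 199, 197 and 172 CPM in WT libraries. Edem2 had 58.1, 56.9, 59.7 and 58.4 CPM in KO libraries, against 50.6, 51.4, 56.2 and 53.4 CPM in WT libraries. The log2 fold change was 0.14 for each (adjusted p = 0.464 for Txndc5 and 0.309 for Edem2). KO and WT did not overlap for Edem2, as for 4.32% of all tested genes with KO higher. The B cell surface list had 2 positive and 18 negative log2 fold changes with a median of -0.35 and no call, against -0.01 over all genes, and WT library 1 was the highest library for all 20 genes. Rag2 and Igll1, genes of B cell precursors, had 0 counts in all 8 libraries. Other precursor genes were very low but seen. Rag1 had 0.0681 CPM in KO library 3 and 0 elsewhere, Vpreb1 had 0 to 0.272 CPM and Dntt 0.0481 to 0.516 CPM.

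Among receptors that bind antibody, Fcgrt, which salvages IgG from degradation, had 282, 308, 355 and 283 CPM in KO libraries, against 323, 340, 371 and 371 CPM in WT libraries (log2 fold change -0.20 ± 0.10 SE, adjusted p = 0.384). None of the 10 genes of this list was called, and 8 had positive and 2 negative log2 fold changes. The next highest in mean level were positive: Fcgr2b (0.23, adjusted p = 0.678), Fcgr3 (0.42, adjusted p = 0.358) and Fcer1g (0.31, adjusted p = 0.491). Pigr, the epithelial receptor that carries polymeric antibody, had 3.08, 1.48, 1.84 and 2.40 CPM in KO libraries, against 0.602, 0.235, 0.574 and 0.720 CPM in WT libraries (2.05 ± 0.38 SE, adjusted p = 0.0653). The groups did not overlap for Pigr. KO libraries 1 and 4, the highest for Pigr, had 81.0 and 85.7 CPM of duct epithelium markers, and KO libraries 2 and 3 had 627 and 644 CPM; the part of these cells in Pigr was not tested. Of factors that attract or sustain B cells, Cxcl12 was highest, at 362, 353, 379 and 470 CPM in KO libraries, against 597, 382, 343 and 284 CPM in WT libraries. Cxcl13, the attractant of B cells to follicles, had 48.8, 30.5, 16.5 and 33.7 CPM in KO libraries, against 38.0, 31.0, 99.7 and 18.2 CPM in WT libraries. Neither was called.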

How the data were processed

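Poly(A) RNA of 8 libraries (4 KO, 4 WT) was read on a stranded kit, per the labels' protocols. The authors deposited whole-number counts and FPKM (scaled to exonic length and read number) per gene in 1 table, per the file headers. The build mm10 and the tools Picard and Novoalign (version 2.8.1) are listed in the submitters' processing notes. For the counting program, annotation, strand setting and multiply mapping reads, the labels and headers state nothing. No column was left unmapped to a sample.

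Counts were tested with edgeR 4.0.16 (quasi-likelihood, TMM, filterByExpr with a minimum count of 10, Benjamini-Hochberg over 14800 genes, threshold 0.05) in R 4.3.3, with DESeq2 1.42.0 as an alternative; the fit was tested on simulated counts. Deposited FPKM served only for levels between genes. Shares have exact binomial intervals (95%). Shared 50-base windows, coding sequences and segment identities came from GENCODE M21 (GRCm38, the build mm10), matched by position and strand, with the starts in the table raised by 1. Coordinates are those of the table's rows. Deviations from the group mean were correlated between KO and WT libraries that share a replicate number.

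The members and the 10 gene lists were chosen with earlier results of these data known. Named members were the constant genes, the 8 heavy and 8 kappa variable segments with the highest mean share, the 3 lambda variable segments, the leading segment of each class in each library, called members and the 5 lowest p-values in each direction. Of lists, the 4 genes with the highest mean level were eligible; others named were chosen after their values were seen. Alternatives were other scalings, no filter, DESeq2, a replicate block, leaving out libraries, and other sets of rows.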

Additional observations from a re-analysis of the deposited data

Results flagged for a closer look

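In 100 groups of 4 libraries tested for a stray library, 14 values lay far from the other 3 of their group, where chance gives about 1 in 20 groups. That rate holds for groups chosen without regard to their values. Some segments here were named because they led in 1 library, and Ighe enters both as CPM and as a share, so the 14 are not to be read against it. All 14 were the highest of their group.

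For kappa variable segments, Igkv3-10 had 26.2 CPM in KO library 2, against 0.681 to 3.60 in the other KO libraries. Igkv5-39 had 131 CPM in WT library 1 (others 3.34 to 5.70), Igkv17-121 had 28.6 CPM in WT library 2 (others 0.851 to 2.06) and Igkv8-24 had 31.2 CPM in WT library 2 (others 2.38 to 3.96). Igkv4-90 had 32.2 CPM in WT library 3 (others 0 to 1.46) and Igkv8-21 had 54.0 CPM in WT library 4 (others 1.35 to 7.96). These 6 values fell in 5 libraries.

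For heavy variable segments, Ighv7-4 had 25.1 CPM in KO library 1 (others 0 to 1.33) and 0.738 CPM in WT library 3 (others 0 to 0.0860), and Ighv14-4 had 13.0 CPM in KO library 1 (others 0.519 to 0.545). WT library 1 also reached 12.0 CPM of Ighv14-4.

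Among heavy constant genes, Ighe had 7.54 CPM in KO library 1 (others 0.445 to 0.953) and 20.8 CPM in WT library 3 (others 0 to 0.262). As shares of heavy constant counts these were 0.155% in KO library 1 and 0.484% in WT library 3. The Ighg2b share was 7.56% in KO library 3, against 3.89% to 4.45% in the other KO libraries.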

How the results depend on the processing

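Genes called numbered 60 with edgeR, 813 with DESeq2, 3 without KO libraries 2 and 3, and 0 to 290 when 1 library was left out (290 without KO library 1, 0 without KO library 2, 23 without KO library 3, and 4 to 20 without WT library 1, 2, 3 or 4). Members called numbered 0 with edgeR, 2 with DESeq2 (Ighv12-3 and Igkv8-21), and 0 to 1 when 1 library was left out (Ighv12-3, without KO library 1). The labels do not say that replicate numbers pair mice. Deviations from the group mean correlated at 0.18, -0.11, -0.25 and 0.06 between KO and WT libraries of the same number. Pairs of different numbers were not compared, so these values cannot show whether the libraries were paired. With the replicate block 14 genes and 0 members were called. With rows without a type on variable genes added after seeing the data, the KO minus WT difference in the effective number of heavy segments was 5.62, against 1.29 with members only. The cause of these moves was not tested. The small KO minus WT differences in isotype shares turned with the library left out, in percentage points: Ighm (0.50) ranged from -1.28 to 3.39 and was negative without KO library 1 or 2 or WT library 1 or 2; Ighg2c (0.30) from -1.63 to 1.93; Ighg2b (0.37) from -0.49 to 1.77; Ighg1 (-0.997) from -1.55 to 0.15 (positive without WT library 1); and Ighg3 (-0.10) from -0.88 to 0.90. The log2 difference in summed level (0.16) ranged from -0.013 without WT library 4 to 0.33. The kappa share difference (-2.22) ranged from -3.79 without KO library 4 to -0.24 without KO library 3, was 0.29 without KO libraries 2 and 3, and was -1.23 with the Iglc3 row, an alternative chosen after seeing the data. Of 19 fold changes, 12 kept their sign in all alternatives and 7 did not, none of them called. In log2, Ighg3 (-0.026) was 0.030 with library totals and 0.16 with the replicate block, and ranged from -1.005 to 1.09 when 1 library was left out, positive without KO library 1, 2 or 4 or WT library 2. Leaving out 1 library gave -0.24 to 0.66 for Ighg2c (negative without KO library 3 or 4 or WT library 1 or 4), -0.26 to 0.099 for Igkc (positive without KO library 4 or WT library 1), -0.70 to 0.26 for Ighg1 (positive without WT library 1) and -0.042 to 1.20 for Iglc2 (negative without KO library 3). Without KO libraries 2 and 3, Ighg1 was 0.057 and Iglc2 was -0.15. Ighv11-2 was -0.18 and Igkv14-126 was -0.11 without KO libraries 2 and 3, the highest libraries for both. Depth limits joining segments, with 65 to 238 heavy and 15 to 58 kappa joining counts a library, and variable segments, with 695 to 2970 heavy variable member counts.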

Other observations

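Over heavy and kappa variable genes together with the rows that have no type, 64 heavy and 37 kappa rows were added to the members, with 29739 and 40443 counts beside 11581 and 27750 counts in the members. Of these, 50 heavy and 29 kappa rows were tested and none was called. In this wider set the effective number of heavy segments was 35.5, 27.5, 25.2 and 17.5 in KO libraries, against 23.7, 20.2, 21.1 and 18.2 in WT libraries. That of kappa segments was 27.9, 14.1, 28.9 and 17.7 in KO libraries, against 18.0, 18.6, 18.0 and 12.5 in WT libraries. The groups overlapped for both.

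In the wider set, Igkv14-126 had the largest kappa share in KO libraries 1, 2 and 3 and in WT library 4, at 8.73%, 23.0%, 9.83% and 16.8%. Ighv6-6 had the largest heavy share in WT libraries 3 and 4, at 14.3% and 17.0%, and the other 6 libraries had 6 different leading heavy segments. Ighv1-42 had 17.2% of heavy variable counts in KO library 4, against at most 4.32% in the other 7 libraries. Ighv1-80 had 12.9% in WT library 2, and Igkv1-117 had 18.4% of kappa variable counts in the same library. Igkv1-110 had 15.0% in WT library 3, against at most 4.12% in the others. Igkv3-2 had 14.7% in KO library 4, against at most 3.40% elsewhere, and Igkv5-43 had 12.1% in WT library 4. These segments were chosen after their values were seen.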
